A study of Mus musculus with 13 samples.

Results

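The genes described here encode the secreted Wnt ligands, the Frizzled receptors (Fzd) with the co-receptors Lrp5 and Lrp6, the R-spondins with the receptors Lgr4, Lgr5 and Lgr6, the secreted antagonists of the Dkk and Sfrp families with Frzb and Wif1, and the nuclear factors Lef1, Tcf7l1 and Tcf7l2 with the scaffold proteins Axin1 and Axin2. They were chosen by symbol alone, from array features to which the platform's probe table gives a single gene symbol, and features of a gene were averaged on the log2 scale. This gave 54 genes, measured by 86 features, of 19087 genes in all. By role they were 19 ligands, 12 receptors and co-receptors, 7 genes of the R-spondin axis, 11 antagonists and 5 nuclear factor or Axin genes. Tcf7, which the symbol rule also covers, was not analysed here.

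RNA was measured on 13 one-colour Agilent arrays of cultured mouse cells. All cells lacked p19Arf, a growth-restraining product of Cdkn2a, so the controls carry this deletion too, and all were of a C57BL/6-129 background. Tail-tip fibroblasts (TTF, 3 arrays) and mouse embryonic fibroblasts (MEF, 1 array) were kept for 42 days in serum-containing DMEM. Induced hepatocyte-like cells (iHep, 4 arrays) came from such tail-tip fibroblasts after lentiviral delivery of 3 liver-enriched transcription factors, which the labels do not name, and were sampled at day 21 after induction in modified Block's medium. Each iHep array is 1 colony, and its epithelial cells had been enriched by partial trypsin digestion. Primary hepatocytes (hepatocyte, 4 arrays) were proliferating cells kept for 21 days in the same medium. The mixed culture (mixed, 1 array) held fibroblasts and epithelial cells together 21 days after transduction of tail-tip fibroblasts with the same factors. Medium and day were tied to the group and cannot be told apart from it. The labels do not say whether replicates came from separate animals or cultures, and the p-values below cover only the scatter of these arrays, which can be technical.

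Wnt ligands are secreted lipid-modified proteins that bind a Frizzled receptor together with Lrp5 or Lrp6. In the canonical branch this halts the degradation of beta-catenin by a complex built on Axin, and beta-catenin then acts with Lef1 and the Tcf factors on target genes, among which Axin2 is itself a negative feedback gene. R-spondins bind Lgr receptors and keep Frizzled receptors on the cell surface. Some of the Dkk proteins block Lrp5 and Lrp6, and Sfrp proteins, Frzb and Wif1 bind the ligands themselves. In the liver this signalling sets the gene programme of hepatocytes around the central vein, and endothelial cells of that vein are a known source of Wnt ligands and of Rspo3.

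Levels below are log2 intensities relative to the 75th percentile of the array, so 0 is that percentile, and levels of different genes are not compared because each probe has its own brightness. The limit of measurement of an array was 3 times its local floor of intensity, which is the lowest value among neighbouring features. Of the 54 genes, 31 were above this limit on all 13 arrays and 23 on some arrays only. Between 35 (iHep replicate 2) and 53 (MEF) of them were above it on an array, and iHep replicate 2 had the highest median floor, at a level of -7.5 against -9.39 to -8.23 on the other arrays. The 75th percentile itself lay between an intensity of 1140 and 2260, and the number of arrays limits the precision.

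Some arrays stood apart within their group. Xist, the RNA that silences an X chromosome, was at 2.02 and 1.95 on iHep replicates 3 and 4 and at 1.08 on the MEF array, and at -7.1 or lower on the other 10 arrays. The Y-linked Eif2s3y was below the limit on those same 3 arrays and between 0.6 and 3.03 on the others, so iHep replicates 3 and 4 differed in sex-linked RNA from all TTF arrays. Over all 19087 genes, iHep replicates 1 and 2 correlated with a Pearson's r of 0.97 and replicates 3 and 4 with 0.99, and the 2 pairs with each other at 0.91 to 0.93. For hepatocytes it was 0.98 within replicates 1 and 2 and within 3 and 4, against 0.94 to 0.95 across. Over the 54 Wnt genes alone, r was 0.99 between TTF replicates 2 and 3 and 0.77 and 0.76 between these and replicate 1. Values for the iHep and hepatocyte pairs are given beside the results below.

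Marker genes fixed for this work followed the labels in part. The summed level of 9 measured hepatocyte markers of 10 listed lay between -1.85 and -0.13 in TTF, 7.19 and 9.46 in iHep and 6.95 and 8.82 in hepatocytes, with 0.22 for MEF and 8.46 for the mixed culture. The summed level of 8 fibroblast markers lay between 7.78 and 8.27 in TTF, was 0.52, 0.49, 3.71 and 4.34 on iHep replicates 1 to 4, and 3.86, 3.16, 7.55 and 7.14 on hepatocyte replicates 1 to 4. Hepatocyte replicates 3 and 4 thus came near the fibroblast cultures in this sum, to which Col1a1 (6.91 and 6.48) gave the most. Col3a1, Dcn and Pdgfrb were within or above the TTF range on both arrays, and Col1a2 on replicate 3 only. Thy1 (2.49 and -0.13), S100a4 (1.09 and -0.03), Vim (0.84 on both) and Col1a1 were below every TTF array. On the MEF array the 5 epithelial markers summed to 5.28, against -3.07 to -0.47 in TTF and 6.2 to 9.54 in iHep and hepatocytes. Each sum adds linear intensities, so bright genes dominate it. In MEF, Krt8 (4.4) and Krt18 (4.12) were far above every TTF array. Cdh1 (-4.59) and Cldn3 (-3.57) were above TTF by less and below every iHep and hepatocyte array. Epcam (-5.7) lay within the TTF range.

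Promoter windows are shown for Axin2 and Lef1, the feedback gene and the nuclear factor described below, and for Wnt5b and Tcf7l2, 2 further genes with a difference between groups. Among genes with such a difference, only Lef1, Wnt5b and Tcf7l2 had a window with a motif match, and the start with the match is shown. Their other starts held no match. Neither did the windows of Dkk2, Frzb, Fzd4, Lgr4, Wnt9a, Wnt10b and Wnt16, which are not shown. Each is the 250 bases before a start site, from RefSeq on GRCm38.p6, written 5′ to 3′ on the gene's strand. Capitals mark a match to the TCF/LEF motif, searched on both strands as CTTTGAA or CTTTGAT, and as CTTTGTA or else CTTTGTT. The Axin2 window lies at chr11:108920099-108920348 (plus strand) and holds no match. That of Lef1, 1 of 4 starts listed, lies at chr3:131156044-131156293 (plus strand), with a match starting 147 bases before the start. That of Wnt5b, 1 of 3 starts, lies at chr6:119449387-119449636 (minus strand), with a match 71 bases before the start. That of Tcf7l2, 1 of 2 starts, lies at chr19:55895071-55895320 (plus strand), with a match 14 bases before the start.
Axin2: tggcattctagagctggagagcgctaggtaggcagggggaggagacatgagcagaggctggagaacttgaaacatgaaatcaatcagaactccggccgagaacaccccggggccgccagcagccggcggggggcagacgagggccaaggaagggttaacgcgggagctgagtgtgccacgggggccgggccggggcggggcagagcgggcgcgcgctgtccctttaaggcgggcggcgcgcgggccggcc
Lef1: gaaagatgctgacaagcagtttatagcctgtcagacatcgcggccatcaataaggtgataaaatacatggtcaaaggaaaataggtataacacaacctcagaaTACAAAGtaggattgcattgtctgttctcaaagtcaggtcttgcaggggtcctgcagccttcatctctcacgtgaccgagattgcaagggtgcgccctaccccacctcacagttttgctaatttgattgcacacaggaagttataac
Wnt5b: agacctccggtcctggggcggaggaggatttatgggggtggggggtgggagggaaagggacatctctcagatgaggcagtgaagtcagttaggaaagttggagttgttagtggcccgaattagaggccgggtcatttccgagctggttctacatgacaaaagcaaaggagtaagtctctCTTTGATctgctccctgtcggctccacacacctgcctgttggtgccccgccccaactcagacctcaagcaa
Tcf7l2: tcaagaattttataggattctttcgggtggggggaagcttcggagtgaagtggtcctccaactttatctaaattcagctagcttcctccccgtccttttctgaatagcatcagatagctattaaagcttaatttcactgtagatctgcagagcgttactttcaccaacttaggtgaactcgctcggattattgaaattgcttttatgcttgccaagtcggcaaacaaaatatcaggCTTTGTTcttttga
A promoter was found for 36 of the 54 genes, 43 windows in all, and 6 windows (14%) held a match, against 4874 of 32851 windows (14.8%) over all genes. The other 3 windows with a match belonged to Dkk1, Fzd7 and Wnt11. A match is a string of letters and not a shown binding site.

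Setting iHep against TTF asks how the Wnt genes of the colonies differed from those of fibroblasts like the ones they were made from. Of the 54 genes, 4 were higher in iHep (Fzd3, Fzd4, Fzd6 and Lgr4) and 9 were lower (Wnt5b, Wnt9a, Wnt10b, Fzd2, Rspo2, Dkk2, Sfrp1, Axin2 and Lef1). Calls required 2-fold or more and an adjusted p below 0.05, from limma with Benjamini-Hochberg adjustment over all 19087 genes. Among all genes, 6.86% were called higher and 6.52% lower. By role, 3 receptors rose and 1 fell of 12, while 3 of 19 ligands, 2 of 11 antagonists and 2 of 5 nuclear factor or Axin genes fell and none of these rose, and 1 gene of the R-spondin axis rose and 1 fell of 7. The median log2 fold change was -0.38 over the 54 genes and 0.07 over all genes. At an unadjusted p under 0.05 there were 22 of the 54. The share of all genes at that unadjusted threshold was not counted for any comparison, so such counts cannot show an excess. In bulk RNA such as this, fewer cells of a type and less RNA per cell cannot be told apart.

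Setting hepatocytes against TTF uses the same 3 TTF arrays, so its values stand beside those of iHep and are not independent of them. Here 4 genes were higher (Fzd4, Fzd6, Rspo3 and Frzb) and 10 lower (Wnt5a, Wnt10b, Wnt16, Fzd2, Lgr5, Rspo2, Dkk2, Dkk4, Lef1 and Tcf7l2), where 7.47% of all genes were called higher and 4.91% lower. The median was -0.37 against 0.07 over all genes, and 22 of the 54 had an unadjusted p under 0.05. With each array scaled to its median in place of its 75th percentile, 3 were higher and 15 lower, and the median of all genes itself moved to -0.33. The comparison of iHep with hepatocytes called 4 genes higher (Fzd3, Fzd4, Lgr4 and Tcf7l2) and 2 lower (Rspo3 and Axin2), where 6.25% of all genes were called higher and 7.5% lower. Its median was -0.28 against -0.02 over all genes, and 16 of the 54 had an unadjusted p under 0.05. With median scaling it gave 7 higher and 2 lower, with the median of all genes at 0.22. Some markers of the bile duct also differed in this comparison. Of 5 measured biliary markers (6 listed), 3 were higher in iHep than in hepatocytes and none lower, and their summed level lay between 5.64 and 7.81 in iHep, 3.63 and 5.99 in hepatocytes and 2.48 and 3.12 in TTF. The sums of iHep and hepatocytes overlapped, as did the levels of Krt7 and Sox9. On iHep replicates 1 to 4 Krt7 was at -5.15, -1.71, 1.27 and 2.27, and Sox9 at -0.78, -3.05, 2.66 and 2.49. All 5 markers were above the limit on every iHep and hepatocyte array, and their part in these differences was not tested.

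**Figure D1:**
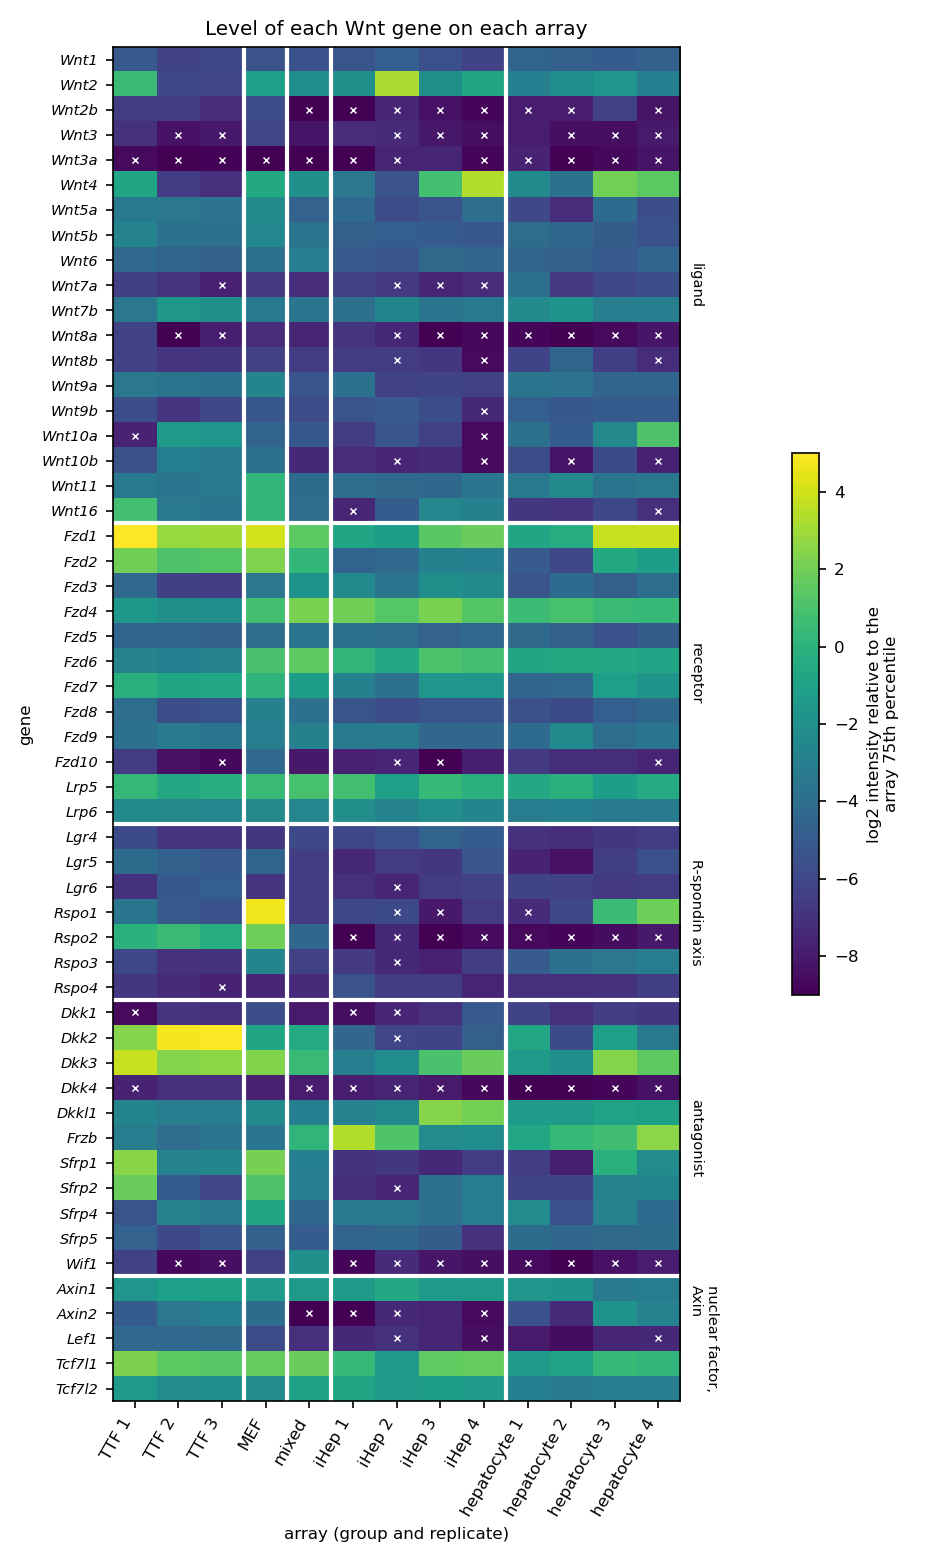
Level of each of the 54 Wnt genes (rows, grouped by role) on each of the 13 arrays (columns), as log2 intensity minus that of the 75th percentile of the array (colour), with a cross where the gene was not above the limit of measurement. Colours are to be compared along a row only. Rspo2 and Dkk2 are bright in the TTF columns and dark in the iHep columns, and Fzd4 and Fzd6 are the reverse.

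Among the receptors, Fzd3, Fzd4 and Fzd6 rose and Fzd2 fell in iHep against TTF. Fzd4, the receptor that also serves the ligand norrin in blood vessel growth, was at -1.55, -2.07 and -2.11 in TTF, 1.97, 1.33, 2.21 and 1.23 in iHep, and 0.6, 0.95, 0.47 and 0.38 in hepatocytes. All iHep arrays lay above all hepatocyte arrays, and these above all TTF arrays. The MEF array, at 0.75, lay within the hepatocyte range. The log2 fold change over TTF was 3.60 ± 0.31 (SE, n = 4 and 3, adjusted p = 4.9e-05) in iHep and 2.51 ± 0.31 (adjusted p = 0.00059) in hepatocytes. Over hepatocytes, iHep was higher by 1.08 ± 0.29 (adjusted p = 0.029). That last call was lost without iHep replicate 1 or 3 or hepatocyte replicate 1, 3 or 4 (0.91 to 1.08, adjusted p = 0.065 to 0.079).

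Fzd6, a receptor known for orienting cells within a sheet, was at -2.76, -2.98 and -2.80 in TTF, 0.23, -0.57, 1.04 and 0.80 in iHep, and -0.75, -0.47, -0.54 and -0.85 in hepatocytes. The iHep and hepatocyte arrays lay wholly above TTF and overlapped each other. The MEF array, at 0.96, was above every hepatocyte array and within the iHep range. The change was 3.22 ± 0.36 (adjusted p = 0.00024) in iHep and 2.19 ± 0.36 (adjusted p = 0.0029) in hepatocytes. The difference of 1.03 ± 0.33 between them was not called (adjusted p = 0.062), and was called without iHep replicate 2 (1.34, adjusted p = 0.008).

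Fzd3, which guides growing axons and shares the planar role of Fzd6, was at -4.23, -6.34 and -6.48 in TTF, -2.36, -3.57, -2.02 and -2.33 in iHep, and -5.29, -4.10, -4.78 and -3.92 in hepatocytes. The iHep arrays were above every array of both other groups, which overlapped each other. Its change was 3.11 ± 0.59 (adjusted p = 0.0055) over TTF and 1.95 ± 0.55 (adjusted p = 0.038) over hepatocytes. The second call was lost without iHep replicate 1, 3 or 4 or hepatocyte replicate 1, 2 or 3 (1.70 to 2.09, adjusted p = 0.057 to 0.099). In hepatocytes against TTF Fzd3 was not called (1.16 ± 0.59, adjusted p = 0.23), and was called without TTF replicate 1 (1.89, adjusted p = 0.042). All 3 Fzd3 probes were higher in iHep than in TTF, by 2.20 to 3.69. For Fzd3 the MEF array, at -3.44, was above every TTF and hepatocyte array and within the iHep range.

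Fzd2, a receptor for ligands such as Wnt5a, went the other way. It was at 1.99, 1.11 and 1.23 in TTF, -4.51, -4.21, -2.89 and -2.93 in iHep, and -4.96, -5.99, -0.49 and -1.14 in hepatocytes. All iHep and hepatocyte arrays lay below TTF, and hepatocyte replicates 3 and 4 lay nearer to TTF than the other hepatocyte arrays. The change was -5.08 ± 1.19 (adjusted p = 0.016) in iHep and -4.59 ± 1.19 (adjusted p = 0.029) in hepatocytes. Leaving out any TTF array ended the iHep call (-5.25 to -4.81, adjusted p = 0.05 to 0.057), and any TTF array or hepatocyte replicate 1 or 2 ended the hepatocyte call (-4.75 to -3.64, adjusted p = 0.054 to 0.086). On hepatocyte replicates 1 and 2 alone the change was -6.91 (adjusted p = 0.00017), and on 3 and 4 alone -2.26 (adjusted p = 0.056). The summed fibroblast markers split the hepatocyte arrays in the same way, though Vim did not, and their part in the result was not tested.

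Neither co-receptor was called. Lrp5 was at -0.14 ± 0.43 (SD, n = 3) in TTF, -0.01 ± 0.80 (n = 4) in iHep and -0.57 ± 0.47 (n = 4) in hepatocytes, and its 95% intervals for the 3 differences lay between -1.42 and 1.47. Lrp6 was at -2.42 ± 0.11, -2.39 ± 0.32 and -3.18 ± 0.21 in the same order, and iHep exceeded hepatocytes by 0.80 ± 0.23 (adjusted p = 0.043), which is under the 2-fold threshold. The remaining 6 receptors, Fzd1, Fzd5, Fzd7, Fzd8, Fzd9 and Fzd10, were called in no comparison. Fzd1 was at 5.19, 2.82 and 3.03 in TTF, -0.77, -1.23, 1.43 and 1.78 in iHep, and -0.72, -0.31, 3.79 and 3.86 in hepatocytes. The iHep arrays lay below TTF (-3.37 ± 1.28, adjusted p = 0.12), and hepatocyte replicates 3 and 4 lay within the TTF range. The 2 probes of Fzd7 differed by -3.40 and -0.62 between iHep and TTF, so its average hides unequal probes.

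Of the R-spondin axis, Rspo2 showed the clearest separation. This secreted enhancer of Wnt signalling, known for its part in limb growth, was at -0.06, 0.53 and -0.30 in TTF, and no iHep or hepatocyte array rose above the limit of measurement. Its measured levels there lay between -8.99 and -7.41 in iHep and between -8.78 and -8.06 in hepatocytes. Rspo2 was thus at least 128-fold lower in iHep (adjusted p = 1.2e-06) and at least 140-fold lower in hepatocytes (adjusted p = 1.1e-06). The mixed culture, at -4.27, lay between the TTF and iHep arrays, and the MEF array was at 1.93.

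Rspo3, a relative that acts in vessel growth and in the liver's central zone, had a different pattern. It was at -5.97, -7.03 and -6.96 in TTF, -6.62, -7.43, -7.69 and -6.45 in iHep, of which replicate 2 was not above the limit, and -4.96, -3.75, -3.47 and -3.04 in hepatocytes. Every hepatocyte array lay above every TTF and iHep array, and the last 2 groups overlapped. Hepatocytes exceeded TTF by 2.85 ± 0.50 (adjusted p = 0.0042) and the difference of iHep from hepatocytes was -3.24 ± 0.46 (adjusted p = 0.0014). Both calls held on hepatocyte replicates 1 and 2 alone (2.30 and -2.69) and on 3 and 4 alone (3.40 and -3.79). Between iHep and TTF the difference was -0.40 ± 0.50 (adjusted p = 0.69), with opposite signs for its 2 probes (-1.37 and 0.58).

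The sums of stellate and macrophage markers, of other liver cells, were also higher in hepatocytes than in iHep and TTF, while the endothelial sum overlapped iHep. Single genes differed from these sums. The stellate gene Rgs5 was at -4.27, -5.72, -3.22 and -2.37 in iHep and -4.53, -4.4, -6.66 and -5.5 in hepatocytes. The endothelial genes Kdr and Stab2 were higher on every hepatocyte array than on any iHep array. From hepatocytes to iHep, 5 of 6 stellate and 6 of 7 endothelial genes had a negative difference. The 6 hepatic stellate markers summed to -0.11 to 1.16 in hepatocytes, -2.89 to -1.98 in iHep and -4.05 to -2.98 in TTF, and 3 macrophage markers of 6 listed to 2.51 to 5.58, -4.99 to -3.19 and -4.53 to -1.82. All of these were above the limit on every hepatocyte array. The 7 endothelial markers summed to -1.03 to 1.75 in hepatocytes, -1.6 to 1.23 in iHep and -3.13 to -1.34 in TTF. Of these lists, 4 stellate, 3 macrophage and 2 endothelial genes were called lower in iHep than in hepatocytes and none higher. On hepatocyte replicates 1 to 4 the stellate markers summed to -0.11, 0.34, 0.82 and 1.16. This sum rose in the order of Rspo3, but each of the 6 genes alone had another order. On the same arrays Des was at -1.11, -2.57, 0.4 and -1.64, and Lrat at -2.86, -1.18, -2.37 and -0.06. The macrophage markers (5.58, 5.16, 2.51 and 3.43) and endothelial markers (1.41, 1.75, -1.03 and 0.28) had a different order. The part of such cells in the Rspo3 difference was not tested.

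The Lgr receptors split. Lgr4 was at -5.88, -6.88 and -6.84 in TTF, -5.95, -5.48, -4.52 and -4.94 in iHep, and -7.01, -7.18, -6.73 and -6.59 in hepatocytes. The iHep arrays lay above all hepatocyte arrays, by 1.65 ± 0.36 (adjusted p = 0.012), and overlapped TTF at 1 array. Of its 2 probes 1 was above the limit on 1 array only, and the other differed by 2.40 between iHep and hepatocytes, 1.66 between iHep and TTF and -0.74 between hepatocytes and TTF. Averaged over both probes, iHep differed from hepatocytes by 1.16 (adjusted p = 0.065) on iHep replicates 1 and 2 alone. On iHep replicates 3 and 4 alone it was 2.14 (adjusted p = 0.0037). Against TTF iHep was higher by 1.31 ± 0.38 (adjusted p = 0.046), a call lost when any array other than TTF replicate 1 or iHep replicate 1 was left out (1.07 to 1.39, adjusted p = 0.052 to 0.18).

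Lgr5, a marker of stem cells in many epithelia, was at -4.59 ± 0.51 (SD, n = 3) in TTF, -6.51 ± 0.88 (n = 4) in iHep and -6.99 ± 1.24 (n = 4) in hepatocytes. All TTF arrays lay above all others. Hepatocytes were lower by -2.41 ± 0.67 (adjusted p = 0.038), and iHep by -1.93 ± 0.67, which was not called (adjusted p = 0.086). The hepatocyte call was lost without any TTF array, iHep replicate 3 or hepatocyte replicate 1 or 2 (-2.65 to -1.95, adjusted p = 0.053 to 0.11), and the iHep difference was called without iHep replicate 4 (-2.32, adjusted p = 0.049). Of its 2 probes 1 was above the limit on no array, which shrinks the averaged change, and the other differed by -3.76 in iHep and -4.50 in hepatocytes. Lgr6 and Rspo4 were called in no comparison, and neither was Rspo1, whose hepatocyte arrays read -7.35, -5.92, 0.62 and 1.90.

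**Figure D2:**
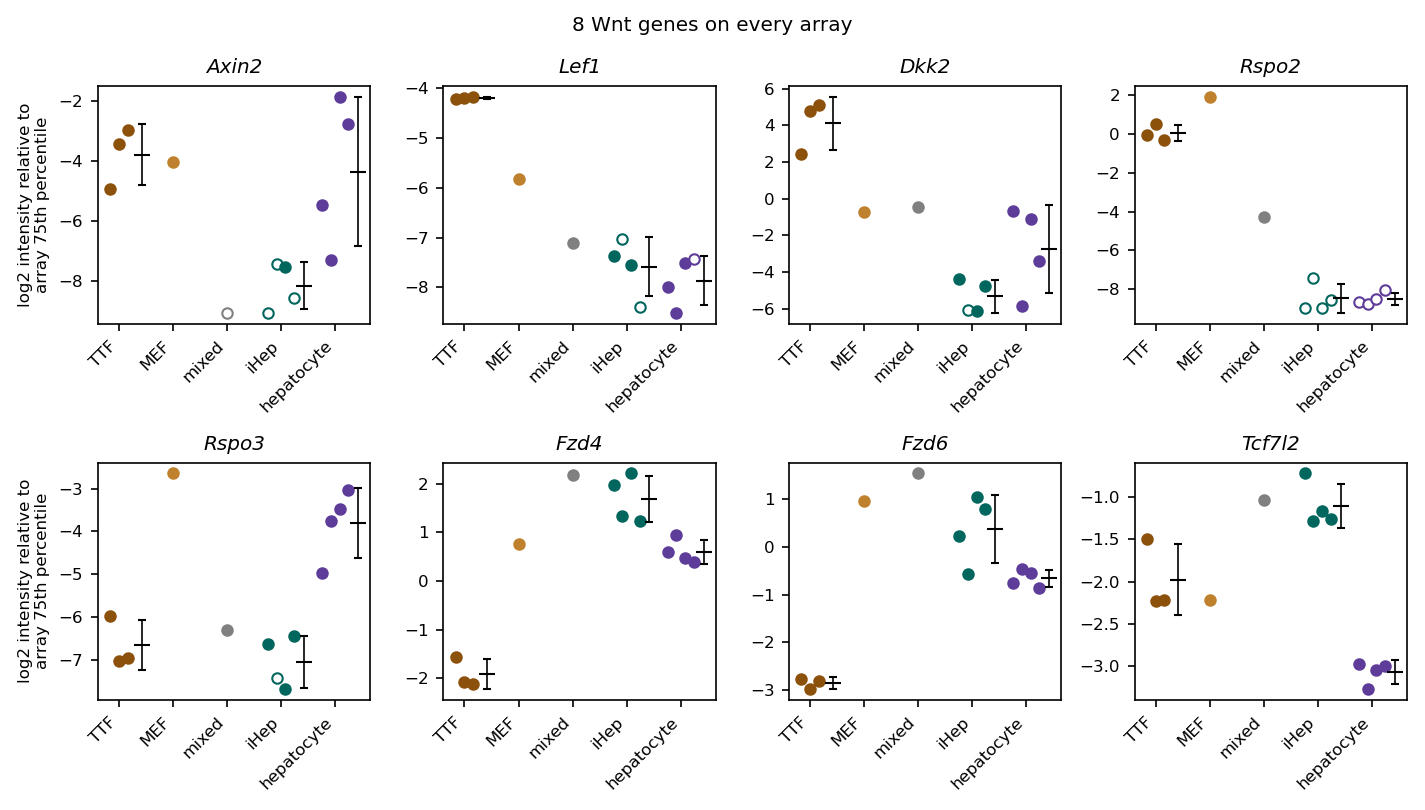
Levels of 8 Wnt genes on every array, as log2 intensity minus that of the 75th percentile of the array, by group, with open circles where the gene was not above the limit of measurement and bars for the mean ± SD of the 3 replicated groups. The 4 hepatocyte points of Rspo3 and the 3 TTF points of Rspo2 stand clear of the iHep points, while the hepatocyte points of Axin2 spread from -7.32 to -1.86.

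Of the antagonists, Dkk2 and Sfrp1 fell in iHep against TTF, and Dkk2 and Dkk4 fell and Frzb rose in hepatocytes against TTF. Dkk2, an antagonist that acts through Lrp5 and Lrp6, was at 2.44, 4.79 and 5.08 in TTF, -4.37, -6.09, -6.11 and -4.76 in iHep, of which replicate 2 was not above the limit, and -0.66, -5.88, -1.12 and -3.39 in hepatocytes. Every iHep and hepatocyte array lay below every TTF array. The change was -9.44 ± 1.16 (adjusted p = 0.00043) in iHep and -6.86 ± 1.16 (adjusted p = 0.0035) in hepatocytes. The iHep arrays overlapped the hepatocyte arrays (-2.57 ± 1.07, adjusted p = 0.13), and the difference was called without hepatocyte replicate 2 (-3.61, adjusted p = 0.025).

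Sfrp1, a secreted binder of Wnt ligands, was at 2.52, -2.78 and -2.59 in TTF, -6.97, -6.71, -7.42 and -6.54 in iHep, and -6.44, -7.84, -0.12 and -2.26 in hepatocytes. The iHep arrays lay below all TTF arrays, while TTF replicate 1 and hepatocyte replicates 3 and 4 stood above the others of their groups. The iHep change was -5.95 ± 1.78 (adjusted p = 0.049), just inside the threshold, and was lost without any single TTF or iHep array or hepatocyte replicate 1 or 4 (-6.87 to -4.22, adjusted p = 0.054 to 0.17). Against TTF, hepatocytes were not called (-3.21 ± 1.78, adjusted p = 0.27).

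Frzb, a ligand-binding antagonist first described in cartilage, was at -3.13, -4.0 and -3.61 in TTF, 3.41, 1.14, -2.25 and -2.20 in iHep, and -0.59, 0.37, 0.71 and 2.54 in hepatocytes. All iHep and hepatocyte arrays lay above TTF, and iHep replicates 1 and 2 lay above 3 and 4. The hepatocyte change of 4.34 ± 1.26 (adjusted p = 0.047) was lost without any single TTF or hepatocyte array or iHep replicate 2 (3.74 to 4.78, adjusted p = 0.053 to 0.14). The iHep difference of 3.60 ± 1.26 (adjusted p = 0.089) was called without iHep replicate 3 (4.36, adjusted p just under the threshold).

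Dkk4, a further Lrp antagonist, was called lower in hepatocytes (-1.61 ± 0.36, adjusted p = 0.015), where no array was above the limit. With 2 of 3 TTF arrays above it, the difference amounts to at least 1.09-fold, and the call was lost without TTF replicate 2 or 3 (-1.52 and -1.51, adjusted p = 0.068 to 0.069). The other antagonists, Dkk1, Dkk3, Dkkl1, Sfrp2, Sfrp4, Sfrp5 and Wif1, were called in no comparison. Dkkl1, a Dkk-like protein known from testis, was at -2.80, -2.28, 2.46 and 2.06 on the iHep arrays, so that replicates 3 and 4 stood above replicates 1 and 2 and above all other arrays. Dkk3 was at 3.84, 2.42 and 2.61 in TTF, -3.0, -2.17, 0.98 and 1.81 in iHep, and -1.46, -2.12, 2.38 and 1.51 in hepatocytes, again with replicates 3 and 4 of both groups above replicates 1 and 2.

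Axin2, the feedback gene whose RNA is widely used as a readout of canonical signalling, was at -4.94, -3.45 and -2.98 in TTF, -9.07, -7.45, -7.56 and -8.59 in iHep, and -5.46, -7.32, -1.86 and -2.78 in hepatocytes. Of the iHep arrays, only replicate 3 was above the limit of measurement. All iHep arrays lay below all TTF and hepatocyte arrays, and hepatocyte replicates 3 and 4 lay above replicates 1 and 2. The iHep change was -4.38 ± 1.13 (adjusted p = 0.026) against TTF and -3.81 ± 1.05 (adjusted p = 0.034) against hepatocytes.

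Both Axin2 calls depended on low values and on particular arrays. With every array raised to a common floor, both were lost (-2.13, adjusted p = 0.22, against TTF and -1.91, adjusted p = 0.21, against hepatocytes). The call against hepatocytes was also lost without scaling (adjusted p = 0.05) and with only the groups compared in the fit (adjusted p = 0.064). Of left-out arrays, the first was lost without TTF replicate 2 or 3 or iHep replicate 1 or 4 (-4.24 to -3.97, adjusted p = 0.056 to 0.11). The second was lost without TTF replicate 2, iHep replicate 1, 3 or 4 or hepatocyte replicate 3 or 4 (-4.01 to -2.98, adjusted p = 0.051 to 0.082). Against hepatocyte replicates 3 and 4 alone iHep differed by -5.84 (adjusted p = 0.0016), and against 1 and 2 alone by -1.78 (adjusted p = 0.15). The sum of the fibroblast markers was also higher on hepatocyte replicates 3 and 4 than on 1 and 2, though Vim was not, and their part was not tested. Between hepatocytes and TTF Axin2 was not called (-0.56 ± 1.13, adjusted p = 0.8).

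Lef1, a nuclear partner of beta-catenin, was at -4.22, -4.20 and -4.17 in TTF, -7.37, -7.02, -7.54 and -8.40 in iHep, and -8.00, -8.51, -7.51 and -7.43 in hepatocytes. The limit was passed on 2 of 4 iHep and 3 of 4 hepatocyte arrays, and TTF lay above all of them. The change was -3.38 ± 0.37 (adjusted p = 0.0002) in iHep and -3.66 ± 0.37 (adjusted p = 0.00015) in hepatocytes, while iHep and hepatocytes differed by 0.28 ± 0.34 (adjusted p = 0.62). Of its 3 probes 1 was above the limit on no array, and the other two differed by -5.66 and -4.61 between iHep and TTF, more than the average shows.

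Tcf7l2, the Tcf factor that carries most canonical output in many epithelia, was at -1.49, -2.23 and -2.21 in TTF, -0.72, -1.28, -1.17 and -1.26 in iHep, and -2.97, -3.27, -3.04 and -2.99 in hepatocytes. The 3 groups did not overlap. Over hepatocytes, iHep was higher by 1.96 ± 0.25 (adjusted p = 0.00077), and all 4 probes were higher, by 0.99 to 2.76. This difference was 2.07 on iHep replicates 1 and 2 alone and 1.85 on 3 and 4 alone, and was called in each. Hepatocytes lay below TTF by -1.09 ± 0.27 (adjusted p = 0.023), a call lost without any TTF array or hepatocyte replicate 2 (-1.22 to -0.85, adjusted p = 0.05 to 0.07). The iHep difference from TTF of 0.87 ± 0.27 was not called (adjusted p = 0.056) but was without TTF replicate 1 (1.11, adjusted p = 0.025).

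Tcf7l1, often a repressor of the same targets, was called in no comparison. It was at 1.68 ± 0.46 (SD, n = 3) in TTF, 0.56 ± 1.46 (n = 4) in iHep and -0.43 ± 0.89 (n = 4) in hepatocytes, and the hepatocyte difference from TTF of -2.11 ± 0.74 (adjusted p = 0.085) was called without iHep replicate 2 (-2.11, adjusted p = 0.026). Axin1, a scaffold of the degradation complex, was not called either, at -1.26 ± 0.34, -1.19 ± 0.42 and -2.45 ± 0.87 in the same order of groups.

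No ligand was called higher in any comparison. Wnt10b, a ligand known for holding back fat cell formation, was at -5.52, -2.98 and -3.22 in TTF, -7.24, -7.49, -7.32 and -8.58 in iHep, and -5.77, -8.20, -5.84 and -7.72 in hepatocytes. Both epithelial groups lay below TTF, with 2 of 4 arrays in each above the limit. The change was -3.75 ± 0.76 (adjusted p = 0.0076) in iHep and -2.98 ± 0.76 (adjusted p = 0.028) in hepatocytes, and the second call was lost without TTF replicate 2 or 3 or hepatocyte replicate 2 or 4 (-2.70 to -2.52, adjusted p = 0.063 to 0.12).

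Wnt5b was lower in iHep than in TTF (-1.49 ± 0.40, adjusted p = 0.03), with no overlap, at -2.73, -3.72 and -3.83 in TTF and between -5.21 and -4.74 in iHep. The call was lost without any TTF array or iHep replicate 3 or 4 (-1.70 to -1.15, adjusted p = 0.054 to 0.11). Wnt5a, the best-known ligand of the branches that do not use beta-catenin, was at -3.48 ± 0.18 (SD, n = 3) in TTF, -4.82 ± 0.89 (n = 4) in iHep and -5.72 ± 1.27 (n = 4) in hepatocytes. Both groups lay below TTF on every array. Only the hepatocyte difference was called (-2.23 ± 0.66, adjusted p = 0.049), and it was lost without any TTF array, iHep replicate 1 or 3 or hepatocyte replicate 1, 2 or 4 (-2.33 to -1.74, adjusted p = 0.056 to 0.14).

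Wnt16, a ligand that bears on bone thickness, was at 0.78, -3.42 and -3.49 in TTF and between -7.09 and -5.98 in hepatocytes, which lay below all TTF arrays (-4.62 ± 1.26, adjusted p = 0.036). The call was lost without any TTF array or hepatocyte replicate 1, 2 or 4 (-5.35 to -3.21, adjusted p = 0.057 to 0.11). Wnt9a was at -3.44, -3.59 and -3.85 in TTF and -3.70, -6.27, -6.17 and -6.24 in iHep. Its iHep replicate 1 lay within the TTF range, and the call (-1.97 ± 0.59, adjusted p = 0.048) was lost when any array other than iHep replicate 1 was left out (-2.08 to -1.74, adjusted p = 0.061 to 0.14). Its 2 probes differed by -0.53 and -3.41 between iHep and TTF and by 0.05 and -3.20 between iHep and hepatocytes, so the average joins unequal probes. Without iHep replicate 1, iHep was also lower than hepatocytes (-2.21, adjusted p = 0.0017), where the difference was -1.57 ± 0.54 with it (adjusted p = 0.077). The brighter probe alone gave a call there too (-3.20, adjusted p = 0.024).

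The other 14 ligands were called in no comparison. Wnt3a was above the limit on 1 array (iHep replicate 3). Wnt4, which acts in kidney and ovary, split within groups, at -0.70, -6.47 and -7.04 in TTF, -3.44, -5.44, 0.80 and 3.39 in iHep, and -2.29, -3.85, 2.0 and 1.47 in hepatocytes. Its difference between iHep and TTF was 3.56 ± 2.31 (adjusted p = 0.38), an interval from -1.55 to 8.68. Wnt2 and Wnt10a also set TTF replicate 1 apart, at 0.53 against -5.92 and -6.01 for Wnt2 and at -7.68 against -1.45 and -1.63 for Wnt10a.

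On iHep replicates 1 and 2 alone, 8 of the 13 calls against TTF were kept, and those of Axin2 (-4.47, adjusted p = 0.083), Lgr4 (0.82, 0.22), Sfrp1 (-5.89, 0.15), Wnt5b (-1.35, 0.12) and Wnt9a (-1.36, 0.24) were lost. On replicates 3 and 4 alone, 10 were kept, and those of Axin2 (-4.29, adjusted p = 0.068), Fzd2 (-4.35, 0.073) and Sfrp1 (-6.02, 0.11) were lost. Against hepatocytes, iHep replicates 3 and 4 kept 5 of 6 calls, all but Axin2 (-3.72, adjusted p = 0.085), while replicates 1 and 2 kept Rspo3 and Tcf7l2 and lost Axin2 (-3.90, 0.097), Fzd3 (1.56, 0.18), Fzd4 (1.05, 0.057) and Lgr4. Of the 14 calls in hepatocytes against TTF, 10 were kept on hepatocyte replicates 1 and 2 alone and 6 on replicates 3 and 4 alone. The share of all genes called there was 12.4% with all arrays, 16% on replicates 1 and 2 alone and 6.63% on 3 and 4 alone. In iHep against TTF that share was 13.4% with all arrays, 13.8% on iHep replicates 1 and 2 alone and 21% on 3 and 4 alone, and against hepatocytes 13.7%, 14.4% and 21.7%.

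In iHep against TTF, the called genes nearest the threshold were Lgr4 (adjusted p = 0.046), Wnt9a (adjusted p = 0.048) and Sfrp1 (adjusted p = 0.049). The nearest genes of the set outside it with a fitted difference of 2-fold or more were Wnt2b (adjusted p = 0.058), Lgr5 (adjusted p = 0.086) and Frzb (adjusted p = 0.089). For Wnt2b no iHep array was above the limit of measurement, so the data show it only as at least 1.28-fold lower than in TTF. Its fit passed the threshold without iHep replicate 2 or hepatocyte replicate 3 (adjusted p = 0.019 to 0.028), against the same values below the limit. Of the 54 genes, 20 were called in at least 1 comparison and 34 in none. Of all genes, 13.4% were called in iHep against TTF, 12.4% in hepatocytes against TTF and 13.7% in iHep against hepatocytes. The shares of all genes called in at least 1 comparison, or alike in both comparisons with TTF, were not counted. Fzd2, Lef1, Rspo2, Dkk2 and Wnt10b were lower, and Fzd4 and Fzd6 higher, in both iHep and hepatocytes than in TTF, comparisons that share the TTF arrays. Beside left-out arrays, other processing ended calls. In iHep against TTF, Lgr4 was lost under 7 settings (median scaling and no scaling among them), Sfrp1 and Wnt9a under 4 each and Axin2 under 1. In hepatocytes against TTF, Frzb and Wnt5a were lost under 5 each, Lgr5 and Wnt16 under 2 each, and Dkk4, Fzd2, Tcf7l2 and Wnt10b under 1 each. In iHep against hepatocytes, Axin2 and Fzd3 were lost under 3 each and Fzd4 under 2. Calls that held under every alternative tried, left-out arrays included, were those of Dkk2, Fzd3, Fzd4, Fzd6, Lef1, Rspo2 and Wnt10b in iHep against TTF (7 of 13). In hepatocytes against TTF they were those of Dkk2, Fzd4, Fzd6, Lef1, Rspo2 and Rspo3 (6 of 14), and in iHep against hepatocytes those of Rspo3 and Tcf7l2 (2 of 6).

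**Figure D3:**
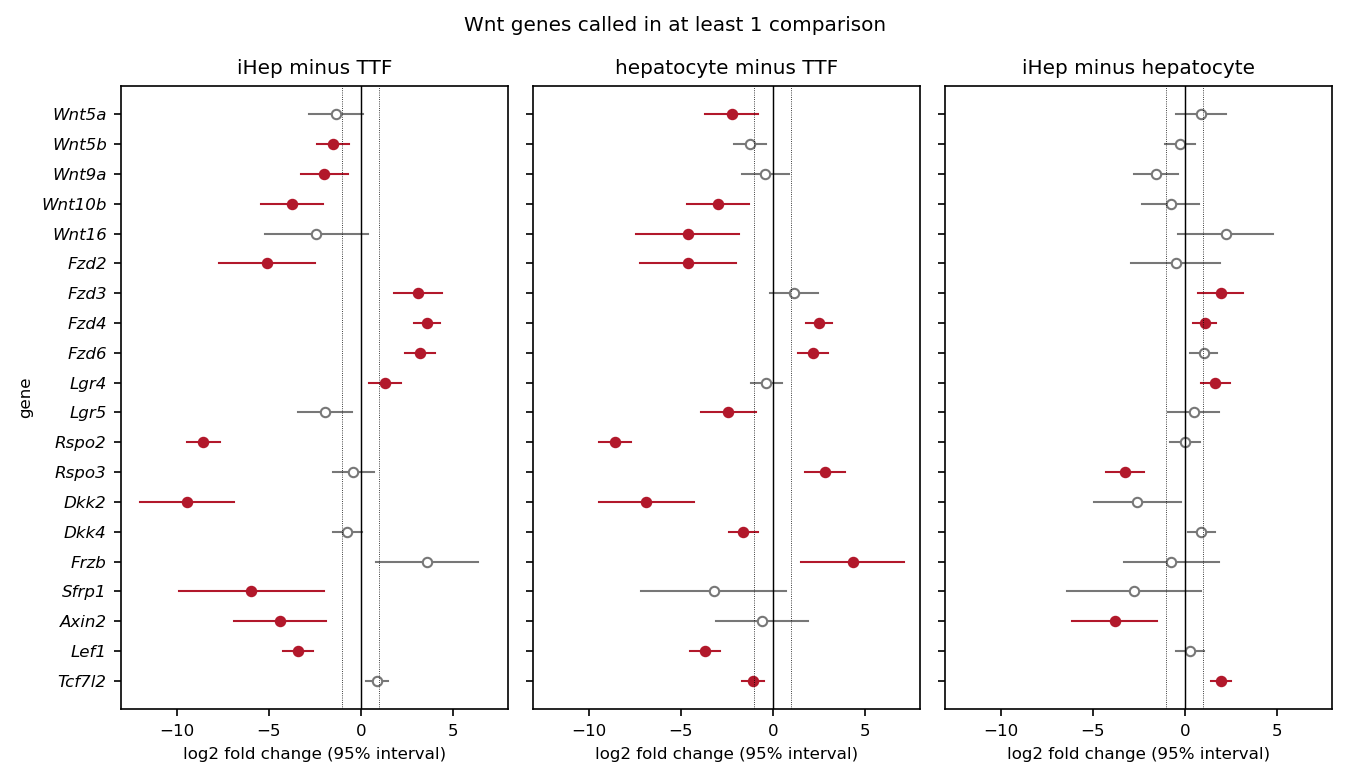
Log2 fold change of the 20 Wnt genes called in at least 1 comparison, with the 95% interval of the limma fit over 3 TTF, 4 iHep and 4 hepatocyte arrays, in 3 panels, 1 per comparison. Filled red points passed both thresholds, open grey points did not, and dotted lines mark a 2-fold change. Dkk2 and Rspo2 lie far to the left in both comparisons with TTF, and Rspo3 lies to the right for hepatocytes against TTF and to the left for iHep against hepatocytes.

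The mixed culture and the MEF culture had 1 array each, so no test was made and genes were counted where they lay outside the range of the TTF arrays and differed from their mean by 4-fold or more. On the mixed array 5 of the 54 genes were higher (Fzd3, Fzd4, Fzd6, Frzb and Wif1) and 9 lower (Wnt2b, Wnt10b, Fzd1, Rspo2, Dkk2, Dkk3, Sfrp1, Axin2 and Lef1), where 6.49% of all genes were higher and 3.67% lower. Fzd4 was at 2.17, Fzd6 at 1.54 and Fzd3 at -1.82, that is 4.08, 4.39 and 3.86 above the TTF mean. Fzd4 lay within the range of the iHep colonies, and the other two lay above it.

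Wif1, a secreted inhibitor that binds Wnt ligands, was at -1.99 on the mixed array and not above the limit on any iHep or hepatocyte array. In TTF it was above the limit on 1 of 3 arrays, with levels of -6.22, -8.70 and -8.43, and the MEF array was at -6.27. Every array other than the mixed one was thus at -6.22 or lower for Wif1. Axin2 was not above the limit there, which makes it at least 14.2-fold lower than the TTF mean, and Wnt2b likewise at least 1.83-fold lower. Dkk2 (-0.45) and Rspo2 (-4.27) lay between the TTF and iHep arrays. The fibroblast markers summed to 6.11 on the mixed array, also between the 2 groups, and their part was not tested.

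On the MEF array 10 genes were higher than in TTF (Wnt4, Wnt11, Fzd3, Fzd4, Fzd6, Fzd8, Fzd10, Rspo1, Rspo3 and Sfrp4) and 1 was lower (Dkk2), where 4.02% of all genes were higher and 2.04% lower. Rspo1, an R-spondin needed for ovary development, was at 4.71 there against -3.54, -5.08 and -5.48 in TTF, a difference of 9.41. Among the other arrays only hepatocyte replicates 3 and 4 were above 0, at 0.62 and 1.90. Rspo3 was at -2.64, which is 4.01 above the TTF mean, and Wnt11, a ligand that directs cell movements in the embryo, at 0.22, which is 3.68 above it. All 12 receptors were above the TTF mean on this array, as were 8442 of the 19087 genes. Of the 12, 5 passed the 4-fold rule, and Fzd1 (4.07) and Lrp6 (-2.4) lay within the TTF range. Fzd10 (-4.23), Fzd8 (-2.88) and the secreted antagonist Sfrp4 (-0.76) were also above every TTF array. Dkk2 was at -0.73, a difference of -4.84 from the TTF mean. Wnt4 lay close to TTF replicate 1, at -0.50 against -0.70. The summed level of stellate markers on this array was 2.49, above every other array. In that sum Des was at 2.3, Ngfr at -1.06, Hand2 at -2.47 and Rgs5 at -4.71. Reln (-7.67) and Lrat (-8.67, not above the limit) were below every hepatocyte array, while Des and Ngfr were above every one. The part of other cell types was not tested.

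**Figure D4:**
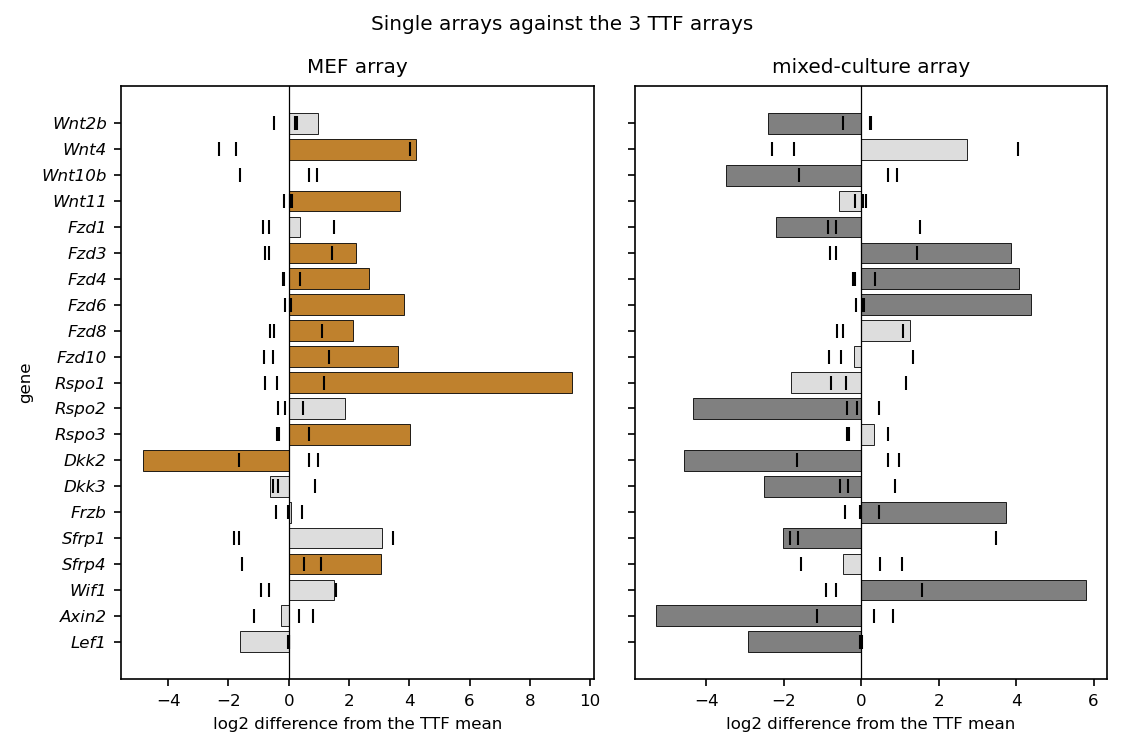
Difference of the MEF array (left) and the mixed-culture array (right) from the TTF mean for the 21 Wnt genes past the 4-fold rule on either array, in log2 units (bars, orange or dark grey where past the rule and light grey where not), with ticks for the 3 TTF arrays relative to their own mean. Rspo1 has the longest bar on the MEF array, and Wif1 and Axin2 point opposite ways on the mixed array.

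Other genes of the pathway were taken from a list of 57, of which 55 were measured. In iHep against TTF 4 were higher (Celsr1, Celsr2, Nlk and Rnf43) and 4 lower (Nkd1, Nkd2, Gpc4 and Pygo1), with a median of 0 where all genes had 0.07. Among all genes 6.86% were higher and 6.52% lower, so these counts stand near the background. Nkd1, a feedback inhibitor that binds Dishevelled, was at -0.87, -0.64 and -0.29 in TTF, -5.53, -5.57, -6.25 and -5.97 in iHep, and -1.66, -0.54, 3.08 and 2.70 in hepatocytes. The iHep arrays lay below all arrays of both other groups, by -5.23 ± 0.99 (adjusted p = 0.0052) from TTF and -6.72 ± 0.92 (adjusted p = 0.0011) from hepatocytes. Nkd2, its relative, was lower by -4.71 ± 0.57 (adjusted p = 0.00038) and -2.83 ± 0.53 (adjusted p = 0.0058). Rnf43, a ligase that removes Frizzled receptors from the surface, was instead higher than in TTF in both iHep (3.26 ± 0.67, adjusted p = 0.0087) and hepatocytes (4.0 ± 0.67, adjusted p = 0.0035).

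In hepatocytes against TTF 4 of the 55 were higher (Apc2, Rnf43, Sost and Sp5) and 4 lower (Kremen1, Ptk7, Tle1 and Tle2), and in iHep against hepatocytes 2 were higher (Kremen2 and Tle1) and 3 lower (Nkd1, Nkd2 and Ror1). The shares of all genes called higher and lower were 7.47% and 4.91%, and 6.25% and 7.5%. Sp5, a target gene of canonical signalling, was at least 36.7-fold higher in hepatocytes than in TTF (adjusted p = 0.04), where it was not above the limit. In iHep it was at -0.59, 1.41, -5.64 and -6.99, high on replicates 1 and 2 and low on 3 and 4. Ctnnb1, which encodes beta-catenin, was not called, with differences of 0.47 ± 0.26, -0.11 ± 0.26 and 0.58 ± 0.24 in the 3 comparisons.

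These shares of all genes are also the background for the lists that follow, where a single gene is a large share of a short list. Of 15 general Wnt target genes measured (16 listed, some of them among the genes above), 1 was higher and 3 lower in iHep than in TTF, 2 higher and 2 lower in hepatocytes than in TTF, and 2 lower in iHep than in hepatocytes. Of 12 liver genes under beta-catenin control, 1 was higher and 1 lower in iHep than in TTF, 2 higher and 1 lower in hepatocytes than in TTF, and 1 higher and 2 lower in iHep than in hepatocytes. Glul, the glutamine synthetase of the central zone, was at -0.62, -1.56 and -1.71 in TTF, 2.08, 1.33, 1.07 and 1.38 in iHep, and -0.15, -0.32, -0.68 and -0.27 in hepatocytes. It was higher in iHep than in TTF (2.76 ± 0.34, adjusted p = 0.00043) and than in hepatocytes (1.82 ± 0.31, adjusted p = 0.0041). Lect2, a secreted liver protein, was higher in hepatocytes than in TTF (5.07 ± 0.53, adjusted p = 0.00021) and lower in iHep than in hepatocytes (-4.73 ± 0.50, adjusted p = 0.00025). The others called were Tbx3, lower in both groups than in TTF (-3.29 ± 0.43 and -3.23 ± 0.43), and Ahr, higher in hepatocytes than in TTF (2.56 ± 0.46) and lower in iHep than in hepatocytes (-2.88 ± 0.43).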

How the data were processed

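The deposited values are linear intensities, 1 per feature and array, and the submitters' processing notes name Agilent Feature Extraction 10.5.1.1. Background handling, slide and scan date are not given in sources used here. Of 45018 features, 33653 had 1 symbol, 56 several and 11309 none in the platform's table. From each log2 intensity that of its array's 75th percentile was subtracted, and probes of 1 gene were averaged, giving 19087 genes. A feature counted as measured above 3 times the lowest value among the 101 features around it, and a gene if any of its probes was. Where no array of the dimmer group was measured, the fold is a lower bound against that limit.

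TTF, iHep and hepatocyte arrays were fitted together, with 1 mean per group, in limma 3.58.1 (R 4.3.3), and this was tested on simulated data. Alternatives were other scalings, a common floor, a filter on dim genes, the brightest probe, an intensity trend, only the groups compared, a replicate block and left-out arrays. All 54 genes matched a RefSeq gene ID with the same symbol. Members, gene lists and alternatives were chosen with earlier results of these data known. Named with values were genes called in any comparison or past the single-array rule, Axin2, Lef1, Tcf7l1, Tcf7l2, Lgr4, Lgr5, Lrp5, Lrp6 and the 3 genes on each side of the threshold. Other genes were named after their values were seen.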

Additional observations from a re-analysis of the deposited data

Results flagged for a closer look

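In 2 of 66 groups of 4 arrays, 1 array of a named gene lay far from the other 3 by Dixon's criterion, which chance alone meets in about 5% of groups. Wnt9a was at -3.7 on iHep replicate 1, against -6.27 to -6.17 on the other iHep arrays, so that the gap made up 0.96 of the range of the group. Wnt11 was at -2.29 on hepatocyte replicate 2, against -3.6 to -3.4 on the other hepatocyte arrays, a gap of 0.846 of the range. The critical value for 4 arrays is 0.829.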

How the results depend on the processing

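No called difference of a Wnt gene changed sign under any alternative, while some differences that were not called did, such as that of Axin2 between hepatocytes and TTF (-2.60 to 1.47) and that of Rspo1 (-1.94 to 5.96). The count of Wnt genes called moved by over 1.5 times under few settings. In hepatocytes against TTF it fell from 14 to 9 with every array raised to a common floor and to 9 without hepatocyte arrays 1 and 2. In iHep against hepatocytes it went from 6 to 11 without iHep arrays 1 and 2, to 3 without iHep arrays 3 and 4, and to 3 without hepatocyte arrays 3 and 4 (the hepatocyte pairs were chosen after seeing the data). The share of all genes called was 8.33% and 6.63% under these settings in the first comparison (main 12.4%), and 21.7%, 14.4% and 13.4% in the second (main 13.7%). With 1 array left out, the counts were 7 to 12 (main 13) in iHep against TTF, lowest without TTF replicate 2 or 3, where 8.25% and 7.92% of all genes were called (main 13.4%). They were 6 to 15 (main 14) in hepatocytes against TTF, with 6 without TTF replicate 2 or 3 (6.54% and 6.19% of all genes), 9 without hepatocyte replicate 1 and 7 without hepatocyte replicate 2, and 3 to 7 (main 6) in iHep against hepatocytes, with 3 without iHep replicate 3 or hepatocyte replicate 3. The cause was not tested, though fewer arrays also mean a weaker test. Median scaling moved the median of all genes from 0.07 to -0.09, from 0.07 to -0.33 and from -0.02 to 0.22 in the 3 comparisons. Same-numbered arrays did not pair (correlations of deviations between -0.06 and 0.11), and a replicate block gave 13, 12 and 5 calls.

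Values near the limit have no firm order. Among the called genes this touches Rspo2, Axin2, Wnt10b and Lef1 in iHep, and Dkk2 and Rspo3 on iHep replicate 2. In hepatocytes it touches Rspo2, Dkk4, Wnt10b, Lef1 and Wnt16, and in TTF Dkk4. Of all arrays, iHep replicate 2 had the highest limit.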

Other observations

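Some Wnt genes are neighbours on a chromosome, with no other protein-coding gene between them in RefSeq. There were 4 such pairs, Wnt6 with Wnt10a on chromosome 1, Wnt3a with Wnt9a and Wnt9b with Wnt3 on chromosome 11, and Wnt10b with Wnt1 on chromosome 15. Wnt10b was lower in iHep than in TTF, while Wnt1, measured by 10 probes, was at -5.75 ± 0.62 (SD, n = 3) in TTF, -5.48 ± 0.55 (n = 4) in iHep and -4.72 ± 0.19 (n = 4) in hepatocytes and was not called. Whether the members of a pair differ from each other was not tested. Wnt9a was lower in iHep, while its neighbour Wnt3a was above the limit of measurement on 1 array. Wnt10a spread from -7.68 to -1.45 within TTF, while Wnt6 spread from -4.73 to -4.23.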
